A study of Mus musculus with 5 samples.

Results

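Broad peaks were defined as the unique peaks of 4000 bp or more, measured as end minus start, in the deposited DamID lists of SOX7, FLI1 and ERG. There were 1079 such regions among 28451 unique peaks of the 3 lists. They made up 339 of 10029 SOX7 peaks, 733 of 16834 FLI1 peaks and 7 of 1588 ERG peaks. The members were chosen by their measured width, so width and everything that follows from it are described here and not tested.

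The libraries came from endothelial precursor cells that were differentiated from mouse embryonic stem cells. FLK1+ cells were isolated on day 3 of embryoid body culture, grown for 1 day in a blast medium with VEGF and IL6, and sorted for cKIT and TIE2. SOX7-Dam was made in the cell line iSox7::Dam, FLI1-Dam in IFli1::Dam and ERG-Dam in iErg::Dam, and both Dam-only controls came from the line iDam. The labels give Ainv18 as the derivative of all 4 lines. There was 1 library each of SOX7-Dam, FLI1-Dam, ERG-Dam, the Dam-only control of SOX7 and the Dam-only control that FLI1 and ERG share. Factor, cell line and library therefore cannot be told apart, and no p-value is given. Exact binomial and Poisson 95% intervals are printed instead, and they cover counting error only. Peak lists of the controls were not analysed here, so the control level at a region is not given. Peak lists hold no expression values, so the sort markers could not be checked as expression.

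DamID marks DNA by fusing a protein to the bacterial enzyme Dam, which methylates the adenine of GATC sites that the fusion protein comes close to. The marked fragments run between neighbouring GATC sites, so the resolution of a peak depends on the spacing of these sites. SOX7 belongs to the SOXF group of HMG-box factors, which act in early blood and vessel development, and FLI1 and ERG are related ETS factors of endothelial and blood cells. SOX factors recognise short sequences around ACAAT, and ETS factors recognise a GGAA core. Wide stretches of factor binding are known from clusters of neighbouring enhancers at genes that define a cell type.

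The following sequences belong to genes to which broad peaks were assigned. They are promoter windows of 300 bases from RefSeq (GRCm38.p6), each from 250 bases before to 50 bases after a gene's start, printed in the direction of transcription. Windows were found for 6 of 9 genes, of which some had several. Those of Kdr, Etv2, Etv6 and Tal1 are shown as genes of endothelial and blood development, and of the 3 Foxp1 windows that with the most motifs. Capitals mark the ETS cores CCGGAA and CAGGAA and the SOX core ACAAT, searched on both strands. The peaks lie on mm9, an earlier build, so whether a window falls inside a peak was not determined.
Kdr, chr5:75978406-75978705, minus strand: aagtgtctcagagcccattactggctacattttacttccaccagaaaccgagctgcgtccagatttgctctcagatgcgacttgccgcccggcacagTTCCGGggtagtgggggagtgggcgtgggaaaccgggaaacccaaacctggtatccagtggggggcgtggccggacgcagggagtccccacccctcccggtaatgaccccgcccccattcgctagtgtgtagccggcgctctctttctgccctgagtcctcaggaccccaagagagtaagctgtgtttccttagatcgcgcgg
Etv2, chr7:30635803-30636102, minus strand: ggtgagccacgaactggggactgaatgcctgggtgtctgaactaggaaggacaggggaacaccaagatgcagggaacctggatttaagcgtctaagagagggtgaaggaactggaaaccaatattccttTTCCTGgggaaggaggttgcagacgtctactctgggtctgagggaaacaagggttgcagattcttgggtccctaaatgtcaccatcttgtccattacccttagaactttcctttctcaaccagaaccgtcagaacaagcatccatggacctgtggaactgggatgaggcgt
Etv6, chr6:134035450-134035749, plus strand: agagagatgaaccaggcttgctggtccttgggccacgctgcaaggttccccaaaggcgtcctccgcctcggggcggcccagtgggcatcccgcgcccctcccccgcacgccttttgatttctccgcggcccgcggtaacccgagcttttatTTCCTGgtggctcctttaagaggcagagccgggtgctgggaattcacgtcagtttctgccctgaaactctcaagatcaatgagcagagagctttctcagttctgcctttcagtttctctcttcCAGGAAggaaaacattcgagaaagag
Foxp1, chr6:99266466-99266765, minus strand: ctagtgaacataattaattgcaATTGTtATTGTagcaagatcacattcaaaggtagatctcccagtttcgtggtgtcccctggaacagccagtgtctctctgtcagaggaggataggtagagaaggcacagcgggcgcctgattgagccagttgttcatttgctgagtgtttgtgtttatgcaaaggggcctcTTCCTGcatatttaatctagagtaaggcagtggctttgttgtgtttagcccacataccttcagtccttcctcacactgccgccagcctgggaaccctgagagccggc
Tal1, chr4:115056176-115056475, plus strand: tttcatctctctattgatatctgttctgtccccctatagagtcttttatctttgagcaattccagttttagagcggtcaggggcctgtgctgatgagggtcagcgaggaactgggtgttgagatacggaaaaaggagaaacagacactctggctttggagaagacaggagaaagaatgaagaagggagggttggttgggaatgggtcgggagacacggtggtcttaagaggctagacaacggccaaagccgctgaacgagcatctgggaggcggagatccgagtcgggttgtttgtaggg
Tal1, chr4:115057561-115057860, plus strand: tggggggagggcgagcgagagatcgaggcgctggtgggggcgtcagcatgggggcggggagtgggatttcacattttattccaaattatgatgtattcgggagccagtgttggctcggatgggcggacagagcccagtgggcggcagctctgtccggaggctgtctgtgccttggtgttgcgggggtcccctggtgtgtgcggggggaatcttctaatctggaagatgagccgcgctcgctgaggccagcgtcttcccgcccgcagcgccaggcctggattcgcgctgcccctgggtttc

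The Kdr window held 1 CCGGAA, the Etv2 window 1 CAGGAA, the Etv6 window 2, and the Foxp1 window 1 CAGGAA and 2 ACAAT. The Tal1 windows held none of these 3 sequences. The bare GGAA, which the Tal1 windows do hold, was not counted. Of the windows not shown, a Foxp1 window held 1 ACAAT, and the other Foxp1 window and the Klf6 window held none of the 3 cores. GATC, the site that Dam methylates, was found in each window shown except that of Etv2. Over 32851 promoter windows of the same length, 14.9% held CCGGAA, 30.6% CAGGAA, 41.4% at least 1 of these, 31.0% ACAAT and 48.0% GATC. These are letter matches only. The microRNA gene Mir760 carried a broad peak in both the FLI1 and the ERG list, and its mature forms are given from RefSeq with the seed, bases 2 to 8, in capitals.
mmu-miR-760-3p: cGGCUCUGggucugugggga
mmu-miR-760-5p: cCCCUCAGgccaccagagcccgg

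Broad peaks were a small part of each list and a larger part of the marked length. They were 3.38% (3.04 to 3.75) of SOX7 peaks, 4.35% (4.05 to 4.67) of FLI1 peaks and 0.441% (0.177 to 0.906) of ERG peaks. They held 1.77 of 16.9 Mb in the SOX7 list (10.5%), 3.76 of 32.0 Mb in the FLI1 list (11.8%) and 0.0327 of 1.82 Mb in the ERG list (1.80%). The median width of broad peaks was 4750 bp for SOX7, 4700 bp for FLI1 and 4250 bp for ERG, beside 1400, 1600 and 950 bp for the narrower peaks of the same lists. The widest peak was 12150 bp for SOX7, 17500 bp for FLI1 and 5800 bp for ERG.

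**Figure D1:**
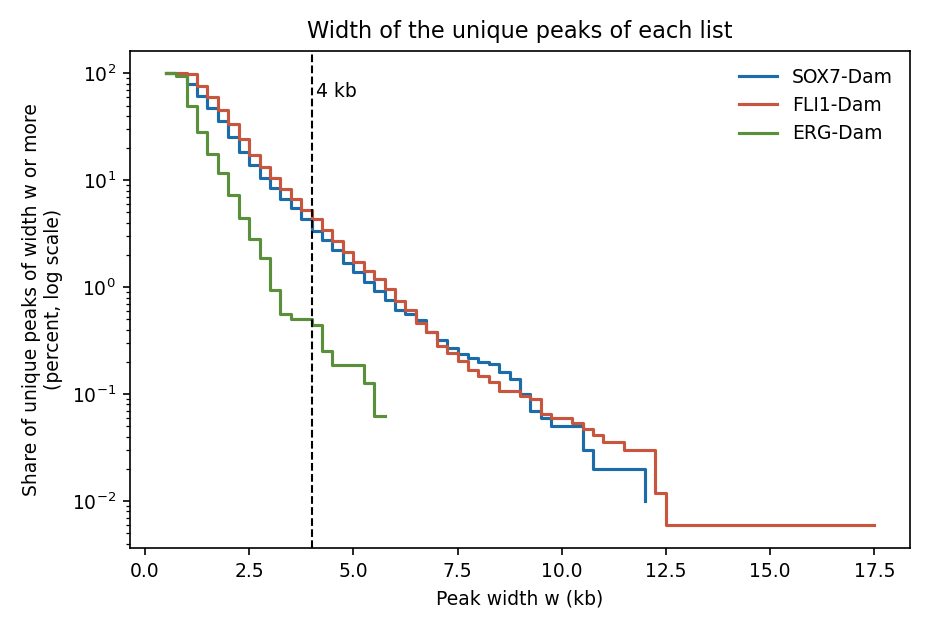
Share of the unique peaks of each list (percent, log scale) that are at least as wide as the width on the x axis (kb), with 1 line per factor and a dashed line at 4 kb. At 2 kb the lines lie at 25.6% for SOX7, 33.3% for FLI1 and 7.24% for ERG, at 4 kb at 3.38%, 4.35% and 0.441%, and the ERG line ends at 5800 bp.

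Most members lay just above the limit. Of the SOX7 members 138 were at least 5 kb, 20 at least 8 kb and 5 at least 10 kb wide. Of the FLI1 members 290, 25 and 10 passed these widths, and of the ERG members 3, 0 and 0. Widths came in steps of 50 bp in all lists. At the limit of 4000 bp there were 16 SOX7, 33 FLI1 and 1 ERG members, and 1 step lower, at 3950 bp, 16 SOX7, 26 FLI1 and 0 ERG peaks. Among peaks that were the sole peak of a gene, the median density at 4000 bp was 34.0 reads per kb for SOX7 (5 peaks) and 90.4 for FLI1 (12 peaks). At 3950 bp it was 81.2 for SOX7 (4 peaks) and 80.9 for FLI1 (6 peaks). The counts showed no step at the limit, and the densities there rest on few peaks.

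The widest SOX7 peak, of 12150 bp, was assigned to the predicted gene Gm13657 (mm9, chr2:75598349-75610499). It was followed by peaks of 11900 bp at Gm5528 (chr1:72051658-72063558) and 10550 bp at the potassium channel gene Kcnq5 (chr1:21924408-21934958). A peak of 10350 bp was assigned to Hnrnpf and 4933440N22Rik (chr6:117854784-117865134), and 10300 bp were covered at Mcc (chr18:44807486-44817786). Hnrnpf encodes an RNA-binding protein of the splicing machinery. Their densities stood between percentile 18.2 (Kcnq5) and 76.9 (Gm5528) of the SOX7 list. The values at Kcnq5, Gm5528 and Mcc are those of the gene over several SOX7 peaks, not the peak's own. All of these 5 peaks met at least 1 FLI1 peak, and FLI1 peaks covered between 38.2% (Hnrnpf) and 61.7% (Gm13657) of their bases.

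The widest FLI1 peak spanned 17500 bp and was assigned to 8 predicted genes, among them Gm16869 (chr9:3015251-3032751). It met no SOX7 or ERG peak and had 2476 reads, or 141 per kb, at percentile 94.2 of the list. Whether these reads map uniquely to the region was not checked. The next were Tead1 with 12300 bp (chr7:119824753-119837053), Gata4 with 12200 bp (chr14:63857907-63870107), Aff1 with 12200 bp (chr5:104183521-104195721) and Ppcdc with 12000 bp (chr9:57271551-57283551). Tead1 encodes a DNA-binding partner of YAP, and Gata4 is a regulator of heart and endoderm development. SOX7 peaks covered 51.6% of the Tead1 peak, 56.2% of the Aff1 peak and 8.76% of the Ppcdc peak. Of these 5 peaks the widest alone met no SOX7 peak.

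The 7 ERG members are given in full. A peak of 5800 bp was assigned to AC191865.1 (chr16:3235942-3241742), listed as a microRNA gene, with 122 reads and 21.0 reads per kb at percentile 25.3 of the ERG list. The next, of 5300 bp, was assigned to Rbm42, Haus5 and Etv2 (chr7:31420845-31426145), with 587 reads and 111 reads per kb at percentile 93.8. Etv2 is an ETS factor at the top of the blood and endothelial programme. Fam113b had a peak of 5000 bp (chr15:97202724-97207724) with 198 reads, 39.6 per kb, at percentile 60.8. Mir760 had 4250 bp (chr3:122016898-122021148) with 114 reads, 26.8 per kb, at percentile 40.8. Macrod1, which encodes an ADP-ribose hydrolase, had 4200 bp (chr19:7128686-7132886) with 337 reads, 80.2 per kb, at percentile 88.7. These densities cover a range of percentiles from low to high. Rnd3 had 4150 bp (chr2:51000738-51004888) and 18.6 reads per kb, the mean of its peak of that width and another ERG peak, at percentile 18.3. The last, of 4000 bp, was assigned to the small nuclear RNA gene U1 (chr3:96300848-96304848), with 164 reads and 41.0 per kb, at percentile 62.2. The ERG members at AC191865.1 and U1 met no peak of SOX7 or FLI1.

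Broad SOX7 peaks met FLI1 peaks more often than narrower SOX7 peaks did. An overlap of at least 1 bp was found for 245 of 339 broad SOX7 peaks, 72.3% (67.2 to 77.0), against 33.9% (32.9 to 34.8) of the narrower ones. Over all SOX7 peaks the share was 35.2%. FLI1 showed the same contrast, with 404 of 733 broad peaks meeting a SOX7 peak, 55.1% (51.4 to 58.8), against 19.4% (18.8 to 20.0) of narrower ones and 20.9% of all. A peak of ERG was met by 50 of 339 broad SOX7 peaks, 14.7% (11.1 to 19.0), against 4.79% (4.37 to 5.23) of narrower ones and 5.13% of all. Of the 7 broad ERG peaks 4 met a SOX7 peak, 57.1% (18.4 to 90.1), against 32.3% of narrower ones and 32.4% of all, which counting error alone can span.

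The overlap was also counted at the central 1000 bp of every peak, which gives broad and narrower peaks a window of equal length. FLI1 was then met by 50.7% (45.3 to 56.2) of broad and 32.8% (31.9 to 33.8) of narrower SOX7 peaks. SOX7 was met by 35.5% (32.0 to 39.1) of broad and 18.2% (17.6 to 18.8) of narrower FLI1 peaks. ERG was met by 6.78% (4.35 to 10.0) of broad and 4.45% (4.05 to 4.88) of narrower SOX7 peaks. The intervals of broad and narrower peaks did not overlap for FLI1 and SOX7, and they overlapped for ERG. The part of width in the whole-peak shares was not tested. Per base, FLI1 peaks covered 38.8% of broad and 28.9% of narrower SOX7 peaks, and SOX7 peaks covered 25.7% of broad and 14.5% of narrower FLI1 peaks. ERG peaks covered 3.98% of broad and 3.13% of narrower SOX7 peaks. The number of separate FLI1 peaks met per 10 kb was 1.54 in broad and 2.17 in narrower SOX7 peaks, and that of SOX7 peaks was 1.17 in broad and 1.11 in narrower FLI1 peaks.

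**Figure D2:**
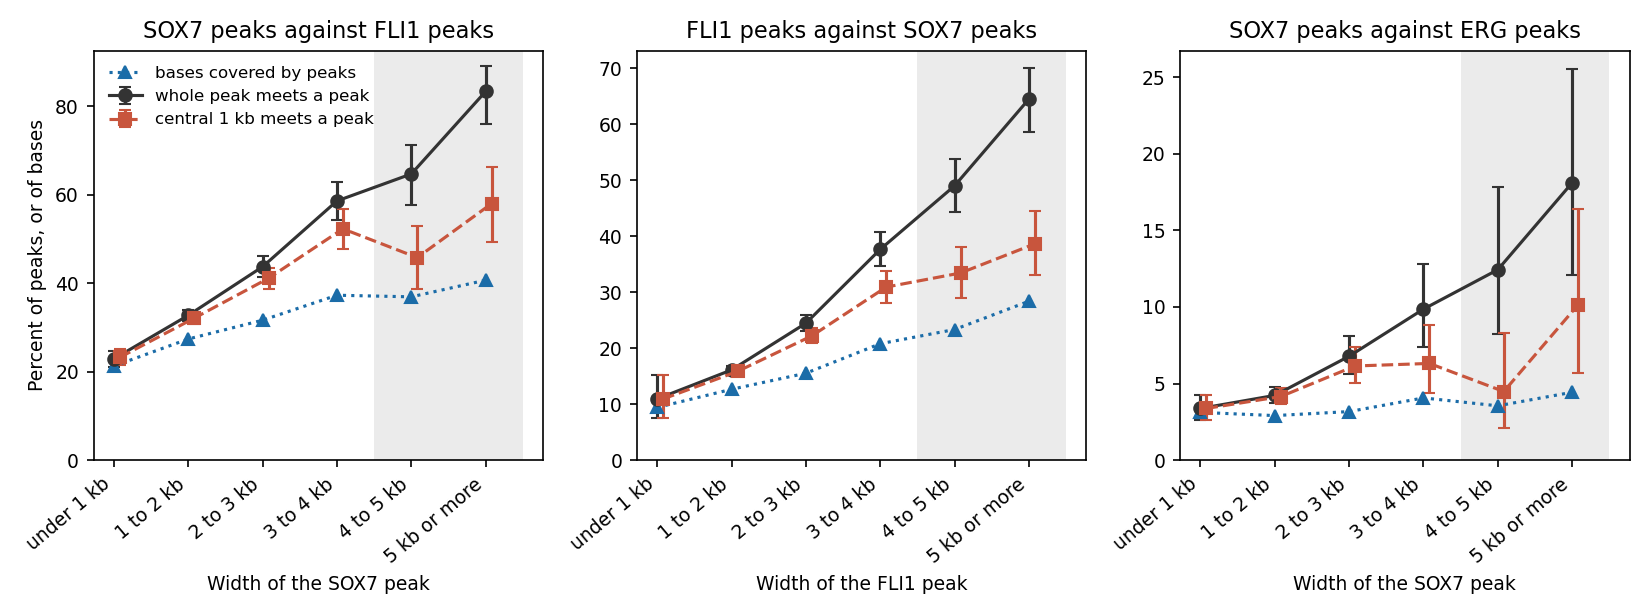
Percent of peaks that meet a peak of the other factor over the whole peak (circles) or its central 1 kb (squares), with exact 95% binomial intervals, and percent of bases covered (triangles), by width of the peak; the grey field holds the broad peaks. For SOX7 against FLI1 the circles lie at 22.9% under 1 kb and 83.3% at 5 kb or more, while the triangles lie at 21.3% and 40.7%.

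The share was higher in each wider class, inside and outside the broad range. For SOX7 peaks meeting FLI1 it was 22.9% under 1 kb, 32.7% at 1 to 2 kb, 43.7% at 2 to 3 kb, 58.6% at 3 to 4 kb, 64.7% at 4 to 5 kb and 83.3% at 5 kb or more. At the central 1000 bp the values were 23.2%, 32.1%, 41.1%, 52.3%, 45.8% and 58.0%. For FLI1 peaks meeting SOX7 the central shares were 10.9%, 15.8%, 22.2%, 30.9%, 33.4% and 38.6% over the same classes. The whole-peak shares showed no step at 4 kb, and the central share of SOX7 peaks was lower at 4 to 5 kb than at 3 to 4 kb, with overlapping intervals.

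Some broad SOX7 peaks met peaks of neither ETS factor. There were 88 of these, 26.0% (21.4 to 31.0), against 64.9% of narrower SOX7 peaks. FLI1 alone was met by 201, ERG alone by 6 and both by 44 (13.0%), the last against 3.58% of narrower SOX7 peaks. FLI1 and ERG were called against the same Dam-only library, so their meeting at a SOX7 peak is not independent. The narrower peaks were 9690 of all 10029 SOX7 peaks. A wider peak can meet more peaks by its width alone, and the part of width in these shares was not tested.

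Some broad peaks held a whole narrower peak of another factor. Of the broad SOX7 peaks 85 held a whole FLI1 peak under 4000 bp, 25.1% (20.5 to 30.0), against 2.89% of narrower SOX7 peaks and 3.64% of all. Of the broad FLI1 peaks 239 held a whole SOX7 peak, 32.6% (29.2 to 36.1), against 6.18% of narrower ones and 7.33% of all. A whole ERG peak lay in 34 broad SOX7 peaks, 10.0% (7.05 to 13.7), against 1.00% of narrower ones and 1.31% of all. Holding a whole peak depends on width directly, so the contrast with narrower peaks is partly fixed by the choice of members. In 79 broad FLI1 peaks lay a whole ERG peak, 10.8% (8.63 to 13.3), against 1.72% of narrower ones and 2.11% of all, with the control library shared. Of the 7 ERG members 3 held a whole SOX7 peak, 42.9% (9.90 to 81.6), against 4.81% of narrower ones and 4.97% of all. None of the 7 held a whole FLI1 peak under 4000 bp, against 2.47% of narrower ERG peaks and 2.46% of all, and 0 of 7 still allows a share of up to 41.0%.

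The peaks held were of ordinary width and did not sit at the centre. The 89 FLI1 peaks inside broad SOX7 peaks had a median width of 1600 bp (1000 to 3950) and took 29.9% of the holder, with their midpoint 951 bp from its centre. The 249 SOX7 peaks inside broad FLI1 peaks had a median width of 1800 bp (700 to 3950), took 32.8% and lay 1092 bp from the centre. The 34 ERG peaks inside broad SOX7 peaks had 1125 bp, and the 80 inside broad FLI1 peaks 1150 bp. Most holders held 1 peak: 2 or more whole FLI1 peaks lay in 4 broad SOX7 peaks, and 2 or more whole SOX7 peaks in 10 broad FLI1 peaks. The files assigned both peaks to a common gene in 87 of 89, 248 of 249, 34 of 34 and 78 of 80 of these cases.

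The held peaks had higher density percentiles than peaks of their list that the holding factor did not meet. FLI1 peaks inside broad SOX7 peaks had a median percentile of 70.8 in the FLI1 list, beside 67.9 for other narrower FLI1 peaks that met SOX7 and 45.5 for those that did not. SOX7 peaks inside broad FLI1 peaks stood at 62.8 in the SOX7 list, beside 58.2 and 45.3. ERG peaks inside broad SOX7 peaks stood at 63.8 in the ERG list, beside 70.0 and 40.1. The held FLI1 and SOX7 peaks stood slightly above other narrower peaks that met the holding factor, and the held ERG peaks below them.

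Whole narrower peaks of both other factors were found in 37 broad FLI1 peaks (5.05%) and 13 broad SOX7 peaks (3.83%). Of narrower peaks 0.391% in the FLI1 list and 0.165% in the SOX7 list held both. Holding whole peaks depends on width directly, so this contrast is partly fixed by the choice of members. Genes of the broad FLI1 peaks that held both, chosen after their values were seen, included the transcription factor genes Erg, Runx1, Nkx2-5 and Msx1. At Erg the FLI1 peak of 5850 bp (chr16:95657974-95663824) held the SOX7 peak of 3700 bp (chr16:95659048-95662748) and the ERG peak of 2150 bp (chr16:95660642-95662792). At Runx1, which is needed for blood cells to arise from endothelium, the FLI1 peak of 7200 bp (chr16:92692824-92700024) held a SOX7 peak of 2300 bp (chr16:92692948-92695248) and an ERG peak of 1950 bp (chr16:92697092-92699042). The SOX7 and ERG peaks at Runx1 did not touch, while those at Erg overlapped. At the cardiac factor gene Nkx2-5 the FLI1 peak of 4900 bp (chr17:26984036-26988936) held a SOX7 peak of 1850 bp (chr17:26986791-26988641) and an ERG peak of 2050 bp (chr17:26986754-26988804). There the inner peaks began within 50 bp of each other. The Msx1 peak of 8800 bp (chr5:38217271-38226071) held a SOX7 peak of 2800 bp and an ERG peak of 2400 bp that lay apart.

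**Figure D3:**
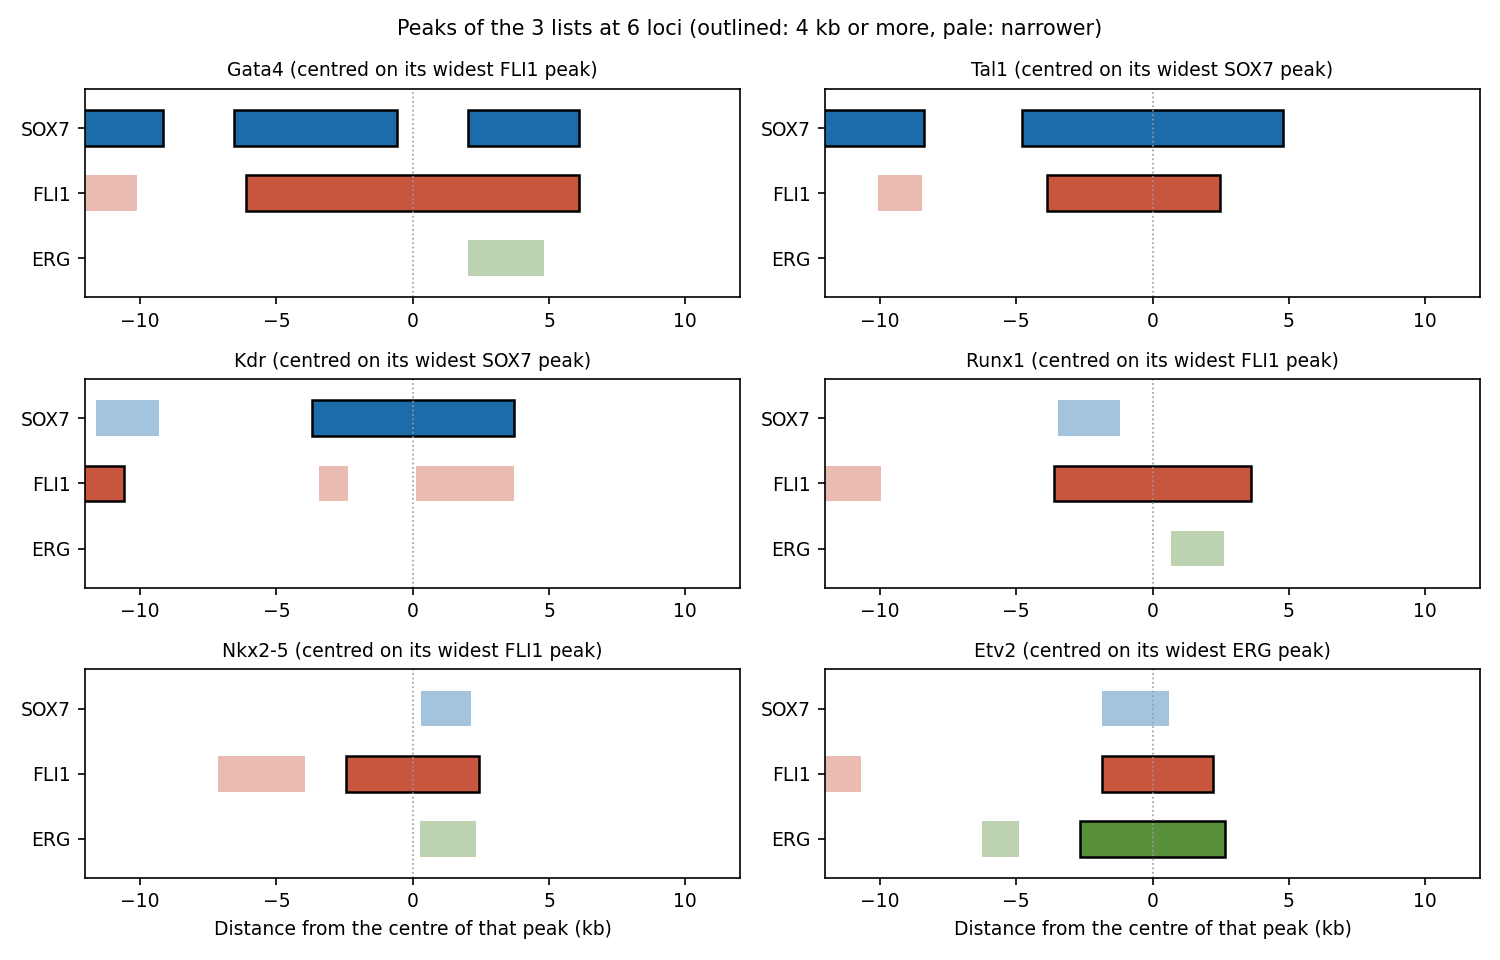
Peaks of SOX7, FLI1 and ERG at 6 loci, drawn to scale as distance in kb from the centre of the named peak; outlined bars are 4 kb or more, pale bars are narrower, and bars that reach an edge run on beyond it. At Gata4 the FLI1 peak of 12200 bp encloses a SOX7 peak of 4050 bp and an ERG peak of 2800 bp. It also shares 5537 bp with a SOX7 peak of 6000 bp that runs past its left edge. At Runx1 the SOX7 and ERG peaks lie apart inside the FLI1 peak.

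Broad peaks of different factors also overlapped each other. There were 77 pairs of a broad SOX7 and a broad FLI1 peak, formed by 77 SOX7 and 76 FLI1 peaks. Over the pairs the median of the shared bases was 4290 bp, the median share of the SOX7 peak 83.6% and the median share of the FLI1 peak 77.8%. In 12 pairs the shared bases were at least 90% of both peaks, in 7 both edges lay within 200 bp, and in 76 both peaks were assigned to a common gene. The largest number of shared bases, 6651, was at Rspo3, a secreted enhancer of Wnt signalling, where the SOX7 peak (chr10:29258908-29266858) enclosed the FLI1 peak (chr10:29260120-29266770). Gm13657 followed with 6402 bp, Tal1 with 6351 bp and Mobkl2c with 5951 bp. Tnfrsf19 shared 5851 bp, Pcnxl2 5645 bp and Gata4 5537 bp. Gm17730 with 5501 bp, Gm16956 with 5451 bp and the chromatin remodelling gene Arid1a with 5266 bp completed the 10 largest. The shared part covered all of the FLI1 peak at Rspo3, Tal1 and Gm17730, and all of the SOX7 peak at Mobkl2c, Tnfrsf19 and Gm16956.

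Broad ERG and broad FLI1 peaks, which share a control library, overlapped at 4 loci. At Fam113b the ERG peak (chr15:97202724-97207724), the FLI1 peak (chr15:97202762-97207662) and the SOX7 peak (chr15:97202729-97209879) began within 38 bp of each other. This was the only locus where all 3 factors had overlapping broad peaks. Its reads per kb stood at percentile 60.8 of the ERG, 96.6 of the FLI1 and 82.3 of the SOX7 list, where the FLI1 value is taken over 2 FLI1 peaks. At Mir760 the ERG peak (chr3:122016898-122021148) and the FLI1 peak (chr3:122016904-122021954) began 6 bp apart, and a SOX7 peak of 800 bp lay inside both. At Etv2 the ERG peak (chr7:31420845-31426145) enclosed a FLI1 peak of 4050 bp (chr7:31421653-31425703), which the files assign to Rbm42 alone, and a SOX7 peak of 2450 bp (chr7:31421648-31424098). At Rnd3 the FLI1 peak (chr2:50999748-51003998) and the ERG peak (chr2:51000738-51004888) were offset by 990 bp at the start.

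At vessel and blood genes the broad peaks of SOX7 and FLI1 took different positions relative to each other. Kdr, which encodes the VEGF receptor FLK1, had a SOX7 peak of 7400 bp (chr5:76365705-76373105), and FLI1 peaks of 1050 bp (chr5:76365971-76367021) and 3600 bp (chr5:76369521-76373121) met it. The broad FLI1 peak of Kdr, of 4000 bp, lay elsewhere (chr5:76354821-76358821) and met a SOX7 peak of 2300 bp (chr5:76357805-76360105). At Tal1, a master regulator of blood formation, both SOX7 peaks were broad, with 7300 bp (chr4:114730976-114738276) and 9550 bp (chr4:114741876-114751426). FLI1 had a broad peak of 6350 bp inside the wider of these (chr4:114742791-114749141) and narrower peaks at the other. The Kdr pair thus did not overlap while the Tal1 pair did.

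At Esam, an endothelial adhesion molecule gene, the SOX7 peak of 4300 bp (chr9:37334954-37339254) lay inside the FLI1 peak of 4450 bp (chr9:37334901-37339351), and an ERG peak of 750 bp met their right end. At the Notch target Hes1 the SOX7 peak of 4200 bp (chr16:30065548-30069748) lay inside the FLI1 peak of 4400 bp (chr16:30065474-30069874). These were matched intervals with edges within 126 bp of each other. Etv6, an ETS repressor gene, had FLI1 peaks of 9150, 5200 and 4000 bp and a SOX7 peak of 4550 bp (chr6:134139084-134143634) that met none of the 3. At the zinc finger gene Klf6 the SOX7 peak of 6900 bp (chr13:5858453-5865353) and the FLI1 peak of 4300 bp (chr13:5887842-5892142) lay apart. The forkhead gene Foxp1 likewise had a SOX7 peak of 4700 bp (chr6:99153434-99158134) far from its FLI1 peak of 4050 bp (chr6:98936780-98940830). A gene with a broad peak of both factors was therefore not always broad at a common place.

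Read density of the broad peaks was set against the other peaks of the same list as a percentile, where each peak took the reads per kb of its gene with the fewest peaks. The median percentile of broad peaks was 54.7 (50.8 to 58.5) for SOX7, 57.7 (54.6 to 61.6) for FLI1 and 60.8 (18.3 to 93.8) for ERG. The narrower peaks had 49.8, 49.6 and 50.0. Where the gene had no other peak the value is the peak's own, which held for 108 SOX7, 222 FLI1 and 6 ERG members. Their medians were 58.8 (48.9 to 64.7), 56.0 (46.5 to 65.5) and 61.5 (25.3 to 93.8), beside 45.5, 44.9 and 48.4 for narrower peaks. Density is divided by the width that chose the members, so this is a description. Broad peaks were thus near or somewhat above the middle of their lists and not at the top.

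With the density of the assigned gene, 5.90% of broad SOX7 peaks were in the densest 10% of the list and 6.19% in the least dense 10%, against 10.2% and 10.1% of narrower peaks. For FLI1 the shares were 9.69% and 4.50%, against 10.0% and 10.2%. With own values alone, 13 of 108 broad and 14.7% of narrower SOX7 peaks were in the densest 10%, and 14.9% of broad and 14.5% of narrower FLI1 peaks. In the least dense 10% they were 7.41% and 13.6% for SOX7 and 6.76% and 16.6% for FLI1. A read count grows with the width that chose the members, so the read counts are only described. Own counts of broad peaks had medians of 264 (82 to 3041) for SOX7, 346.5 (126 to 2476) for FLI1 and 181 (114 to 587) for ERG. Those of narrower peaks were 66, 108 and 31. Broad peaks were 2.53% of the SOX7 peaks with an own count and held 8.89% of their reads, and for FLI1 they were 3.64% and held 10.2%.

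**Figure D4:**
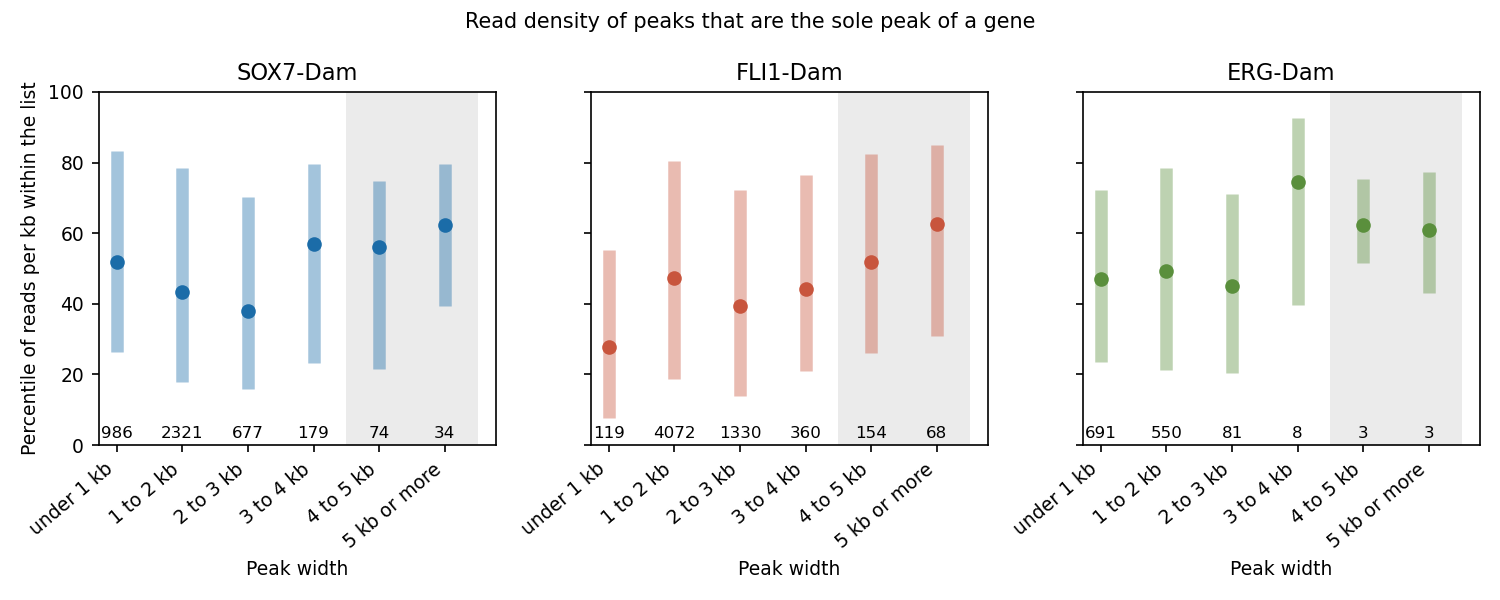
Percentile of reads per kb within each list, by peak width, for peaks that are the sole peak of a gene; dots are medians, bars span the middle 50% of peaks, the number of peaks stands above the axis and the grey field holds the broad peaks. The medians of SOX7 and FLI1 peaks of 5 kb or more lie at 62.2 and 62.6, and those of 2 to 3 kb at 38.0 and 39.4.

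The densest members by their own value were few and differed between lists. Egfl7, the gene of a secreted endothelial protein, had 3041 reads and 608 reads per kb (587 to 630) in its SOX7 peak of 5000 bp (chr2:26426499-26431499). An ERG peak of 1300 bp of Egfl7 and a FLI1 peak of 4650 bp, assigned to Gm13358, both met its left end and covered 12.8% and 18.0% of it. The olfactory receptor gene Olfr893 followed with 249 reads per kb (234 to 265) and no overlap with either ETS factor, and Gm11188 with 137 (127 to 147), of which FLI1 peaks covered 93.7%. In the FLI1 list the peak of Ccdc148 and Gm11099 had 364 reads per kb (346 to 383), that of AC125186.1 and Gm16880 288 (275 to 301) and that of the hair follicle gene Tchh 284 (268 to 301). Of these the peaks at Ccdc148 and Tchh met neither SOX7 nor ERG, and the peak at AC125186.1 was covered to 68.9% by SOX7 peaks. In the ERG list the densest were the Etv2, Macrod1 and U1 peaks given above.

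Where SOX7 and FLI1 peaks met, broad peaks had higher density percentiles than where they did not. Broad SOX7 peaks meeting FLI1 had a median percentile of 57.4, against 43.6 for those that met none, and 63.6 against 31.9 where the value was the peak's own (80 and 28 peaks). Broad FLI1 peaks meeting SOX7 had 68.0, against 45.0, and 70.0 against 39.1 for own values (116 and 106 peaks). Their widths were close, with medians of 4900 and 4575 bp for SOX7 and of 4850 and 4600 bp for FLI1. Broad SOX7 peaks meeting ERG stood at 56.0, against 54.7 for those that met none.

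Broad peaks lay in denser neighbourhoods of their own list. The nearest peak of the same list was a median of 13350 bp away for broad and 28400 bp for narrower SOX7 peaks, and 12050 and 21850 bp for broad and narrower FLI1 peaks. A same-list peak within 5000 bp was found for 24.5% of broad and 13.9% of narrower SOX7 peaks, and for 26.5% of broad and 16.1% of narrower FLI1 peaks. A gap of under 1 kb could occur, since the smallest distance between neighbouring peaks of any width was 550 bp for SOX7 and 300 bp for FLI1. The sources used here do not say whether neighbouring peaks were merged in calling.

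Broad peaks were assigned to 342 of 6530 listed SOX7 genes, 5.24% (4.71 to 5.81), to 774 of 10246 FLI1 genes, 7.55% (7.05 to 8.08), and to 9 of 1579 ERG genes, 0.57% (0.261 to 1.08). Most members had 1 assigned gene, in 319 SOX7, 646 FLI1 and 6 ERG peaks, while 4 SOX7, 11 FLI1 and 1 ERG members had 3 or more. Genes with a broad peak had more peaks in all: a mean of 3.05 against 1.54 for SOX7 genes without, 3.18 against 1.64 for FLI1 and 1.22 against 1.10 for ERG. The share of genes with a broad peak was 2.73% among SOX7 genes with 1 peak and 38.0% among those with 6 or more, and 4.03% and 32.1% for FLI1. The number of peaks per gene moved with the broad peaks, and its part in the gene counts below was not tested.

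Several broad peaks of 1 factor were found at 24 SOX7 genes, 57 FLI1 genes and 0 ERG genes. Fgf10, a growth factor gene of limb, lung and heart development, had 3 broad among 8 SOX7 peaks, with widths of 8650, 5500 and 6100 bp, and its 5 FLI1 peaks were all narrower. Gata4 had 3 broad among 3 SOX7 peaks, of 4250, 6000 and 4050 bp. Bach2, a transcription factor gene of lymphoid cells, had 4 broad among 13 FLI1 peaks and 2 among 8 SOX7 peaks. Gm11019 had 4 among 6 FLI1 peaks. Dapk1, Dlc1 and Etv6 had 3 broad FLI1 peaks each, among 7, 10 and 9, and the FGF receptor gene Fgfr2 had 3 among 40. At Gata4 and Tal1 no SOX7 peak was narrow, while at Fgfr2 the broad peaks were a small part.

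Genes with a broad peak were partly common to SOX7 and FLI1. The 110 genes with a broad peak of both were 32.2% of the SOX7 and 14.2% of the FLI1 genes with a broad peak. Of the SOX7 genes with a broad peak 87.4% had any FLI1 peak, against 69.1% of all SOX7 genes. Of the FLI1 genes with a broad peak 70.7% had any SOX7 peak, against 44.0% of all FLI1 genes. Protein-coding genes made up 81.3% of SOX7 and 82.0% of FLI1 genes with a broad peak, close to their 80.3% and 79.3% of all listed genes. Among listed lincRNA genes 20 of 281 had a broad SOX7 peak, 7.12% (4.40 to 10.8), and 60 of 674 a broad FLI1 peak, 8.90% (6.86 to 11.3). For snoRNA genes, which often lie in introns of host genes, the counts were 10 of 107 (9.35%, 4.57 to 16.5) and 14 of 161 (8.70%, 4.84 to 14.2). For pseudogenes they were 10 of 294 (3.40%, 1.64 to 6.17) and 20 of 443 (4.51%, 2.78 to 6.89), against 5.24% and 7.55% of all listed genes.

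Gene lists of 16 groups, chosen with earlier results of these data known, were then counted. Of 19 endothelial identity genes in the SOX7 list 7 had a broad SOX7 peak, 36.8% (16.3 to 61.6), against 5.30% of all listed protein-coding genes. They were Egfl7, Esam, Fli1, Kdr, S1pr1, Tek and Tie1. Tek and Tie1 encode the TIE receptors, and S1pr1 a receptor for sphingosine phosphate. For FLI1 the count was 5 of 23, 21.7% (7.46 to 43.7), against 7.82%, with Cd34, Erg, Esam, Kdr and Ptprb. Counted over peaks, 8 of the 50 SOX7 peaks of this list were broad (16.0%, against 3.40% of all protein-coding genes' peaks) and 5 of the 58 FLI1 peaks (8.62%, against 4.38%). Among 6 listed for ERG, Etv2 had the broad peak described above.

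Tek, whose protein TIE2 was used to sort the cells, had broad SOX7 peaks of 4400 bp (chr4:94390176-94394576) and 6550 bp (chr4:94404476-94411026). Its 6 FLI1 peaks were all narrower, and those of 2650 and 1850 bp met them. The broad SOX7 peak of Tie1 (chr4:118137076-118141076, 4000 bp) met no FLI1 peak, and that of S1pr1 (chr3:115388196-115392496, 4300 bp) held a FLI1 peak of 3750 bp. At the Fli1 gene itself 1 of 9 SOX7 peaks was broad, at 4000 bp (chr9:32336154-32340154), and 0 of 7 FLI1 peaks.

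Among cardiac and smooth muscle genes 6 of 9 in the FLI1 list had a broad FLI1 peak, 66.7% (29.9 to 92.5), against 7.82% of protein-coding genes. The 6 were Gata4, Gata6, Hand2, Nkx2-5, Tbx20 and Tbx5, and all 9 are transcription factor genes. Over peaks it was 6 of 24, 25.0%, against 4.38%. The widths were 12200 bp at Gata4, 10250 bp at Tbx20, 6300 bp at Hand2, 5650 bp at Tbx5, 4900 bp at Nkx2-5 and 4100 bp at Gata6. In the SOX7 list 1 of 7 of these genes had a broad peak, Gata4. The SOX7 peaks at Tbx20, of 3200 and 2650 bp, and at Hand2, of up to 1550 bp, stayed under the limit. The difference between SOX7 and FLI1 was not tested, since there is 1 library of each.

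**Figure D5:**
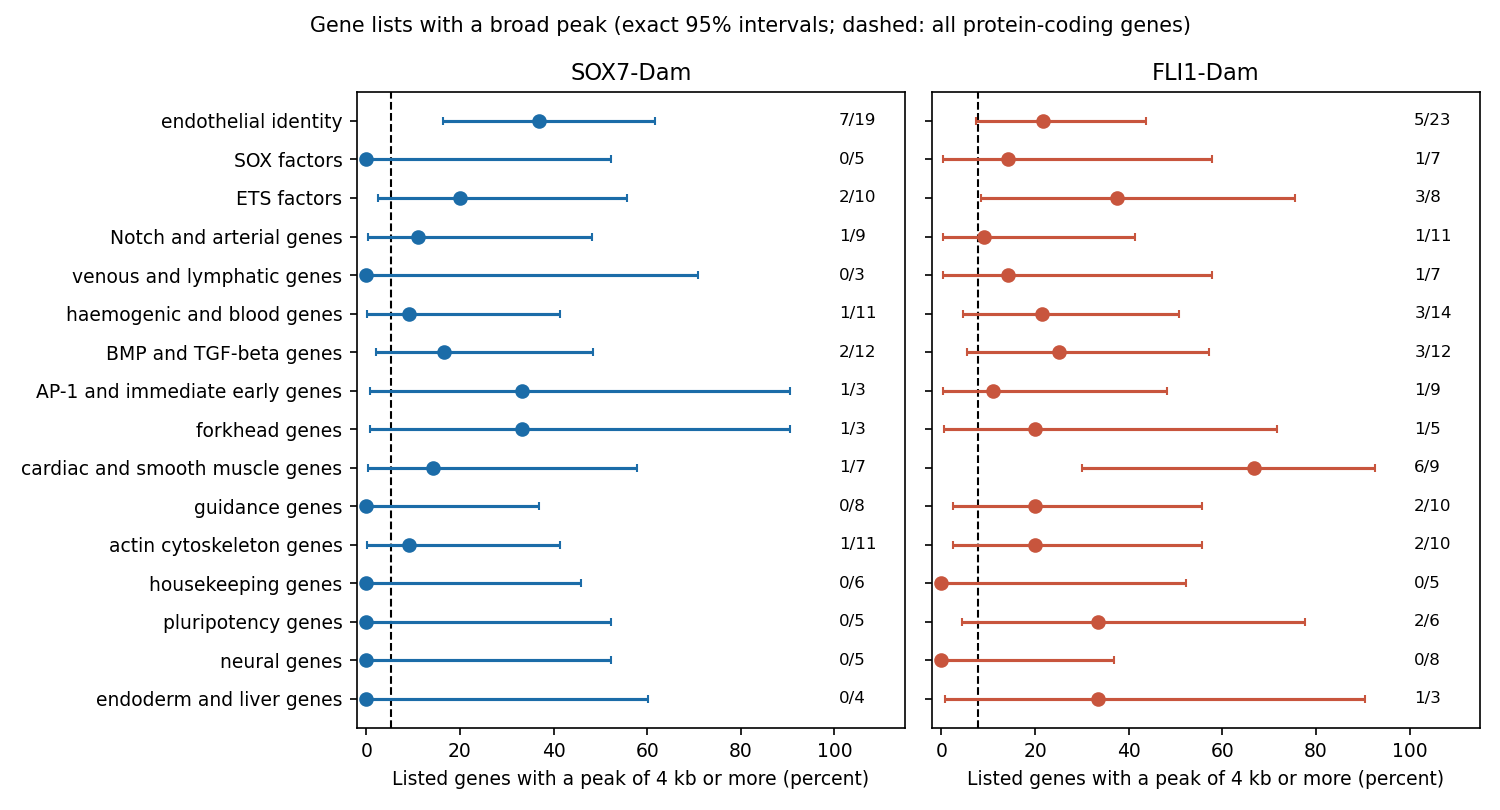
Percent of the listed genes of each group that carry a broad peak of SOX7-Dam or FLI1-Dam, with exact 95% binomial intervals, the counts beside them and a dashed line at the share of all listed protein-coding genes (5.30% and 7.82%). Cardiac and smooth muscle genes stand highest for FLI1 with 6 of 9, and endothelial identity genes for SOX7 with 7 of 19.

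The other groups had at most 3 genes with a broad peak of a factor, many of them at shares above the 5.30% (SOX7) and 7.82% (FLI1) of all listed protein-coding genes. Of ETS factor genes 2 of 10 had a broad SOX7 peak (Etv6 and Fli1) and 3 of 8 a broad FLI1 peak (Erg, Etv3 and Etv6; 37.5%, 8.52 to 75.5), and of SOX factor genes 0 of 5 and 1 of 7 (Sox6). For haemogenic and blood genes the counts were 1 of 11 (Tal1) and 3 of 14 (Hhex, Runx1 and Tal1). For BMP and TGF-beta genes they were 2 of 12 (Bmp2 and Bmpr1a) and 3 of 12 (Id1, Id3 and Smad7; 25.0%, 5.49 to 57.2). Id1 and Id3 encode inhibitors of basic helix-loop-helix factors, and the FLI1 peak at Id1 spanned 9500 bp (chr2:152559348-152568848) and held SOX7 peaks of 1500 and 2900 bp. Notch and arterial genes had 1 of 9 and 1 of 11, Hes1 in both lists. Venous and lymphatic genes had 0 of 3 and 1 of 7 (Aplnr), AP-1 and immediate early genes 1 of 3 and 1 of 9 (Klf6 in both), and forkhead genes 1 of 3 and 1 of 5 (Foxp1 in both). In the SOX7 list 1 of 3 is 33.3%, with an interval of 0.840 to 90.6. All these intervals were wide, and all but that of ETS factor genes with FLI1 (8.52 to 75.5) included the share of all protein-coding genes. This held for ETS factor genes with SOX7 (2.52 to 55.6) and for haemogenic and blood genes with FLI1 (4.66 to 50.8). The ETS factor genes had a mean of 4.88 FLI1 peaks, against 1.86 for all listed protein-coding genes. Over peaks, 5 of their 39 FLI1 peaks were broad (12.8%, against 4.38%), 3 of them at Etv6. Of their 43 SOX7 peaks 2 were broad (4.65%, against 3.40%).

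The remaining groups were counted in the same way, against 5.30% for SOX7 and 7.82% for FLI1. Some share genes with groups above, such as Gata6, which is also counted among the cardiac genes. Guidance genes had a broad SOX7 peak at 0 of 8 and a broad FLI1 peak at 2 of 10 (Epha2 and Unc5b; 20.0%, 2.52 to 55.6), and actin cytoskeleton genes at 1 of 11 (Actb) and 2 of 10 (Myh9 and Tln1). Housekeeping genes had 0 of 6 and 0 of 5, and neural genes 0 of 5 and 0 of 8. Pluripotency genes had 0 of 5 and 2 of 6 (Esrrb and Tbx3; 33.3%, 4.33 to 77.7), and endoderm and liver genes 0 of 4 and 1 of 3 (Gata6). With 0 of 5 the exact upper limit was 52.2%, so an absence from these groups cannot be read from the counts. For ERG a broad peak was found in the endothelial identity and ETS groups only, at Etv2, which both hold.

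Broad peaks were spread over the chromosomes. The share of SOX7 peaks that were broad lay between 1.63% (0.786 to 2.98) on chromosome X and 6.01% (4.31 to 8.12) on chromosome 4. For FLI1, apart from the 1 narrower peak on chromosome Y, the lowest was 22 of 734 peaks (1.89% to 4.50%) on chromosome 12 and the highest 34 of 541, 6.28% (4.39 to 8.67), on chromosome 18, with 3.63% on chromosome X.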

How the data were processed

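Each of the 3 factor libraries has 1 deposited table of genes with the positions of their peaks. Per the labels, peaks were called relative to the Dam-only control. The build is mm9 per the submitters' processing notes. The sources used here do not give the aligner, peak caller, calling threshold, library depth or the rule that ties peaks to genes. Per the file headers the authors give a read count per gene, which is a whole number over all its peaks, and a coverage signal in reads per kb. The deposited signal equals the count times 1000 over the summed peak length within 0.005, with no scaling to depth or control, so values were compared within a list.

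Positions were reduced to unique peaks, and overlap needed at least 1 bp. Intervals are exact binomial (Clopper-Pearson) and Poisson intervals at 95% from scipy 1.17.1 in Python 3.11.15, with pandas 2.3.3. Amplified reads carry no molecular identifiers. The overlap steps were tested on simulated lists. Members and the 16 gene lists, with 208 genes, were chosen with earlier results of these data known. Named are the 5 widest peaks and the 3 densest by their own value per factor, the 10 broad pairs with most shared bases, list genes broad in at least 2 lists or in ERG, and genes with the most broad peaks (up to 8 per factor, with ties at 2 not listed). Other genes were chosen after their values were seen.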

Additional observations from a re-analysis of the deposited data

How the results depend on the processing

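Alternatives gave 46 values for 19 results, of which 18 lay within the counting interval of the main value, or within 1.5 times a main count, and 28 moved. There is no replicate to leave out. No paired analysis was possible because each group has 1 library. Shares of FLI1 peaks meeting ERG peaks, and the reverse, are not reported, since both use the same control.

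With a limit of 5000 bp there were 138 SOX7, 290 FLI1 and 3 ERG broad peaks at 151, 325 and 5 genes, and in the denser 50% of each list 193, 424 and 4. At 5000 bp the SOX7 density percentile was 58.9, the share meeting the other factor 83.3% (SOX7 with FLI1) and 64.5% (FLI1 with SOX7), and the share holding a whole narrower peak 36.2% (FLI1 in SOX7), 42.4% (SOX7 in FLI1) and 15.9% (ERG in FLI1). Ranked by read count, which grows with width, the median percentile was 83.0 for SOX7, 77.0 for FLI1 and 92.6 for ERG. The ERG value lay inside the wide interval of its 7 peaks. With own values of reads per kb alone the median percentile was 58.8 for SOX7. At the central 1000 bp the overlap was 50.7% (SOX7 with FLI1), 6.78% (SOX7 with ERG) and 35.5% (FLI1 with SOX7), and between the denser 50% of both lists 66.3%, 10.9% and 47.2%. Counting midpoints in place of whole peaks gave 49.3% (FLI1 in SOX7), 14.2% (ERG in SOX7), 43.2% (SOX7 in FLI1) and 14.3% (ERG in FLI1). Of 28 settings with a value for narrower peaks, broad peaks were higher in 26. The exceptions were FLI1 peaks inside the 7 ERG members by midpoint (14.3% against 29.0%) and at 5000 bp (0% against 2.46%). Counts of ERG members are too small to order shares.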

Other observations

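Some genes of small structured RNAs carried broad peaks, chosen after their values were seen. Among listed rRNA genes 4 of 26 had a broad SOX7 peak, 15.4% (4.36 to 34.9), and 4 of 37 a broad FLI1 peak, 10.8% (3.03 to 25.4), against 5.24% and 7.55% of all listed genes. For snRNA genes the counts were 4 of 112 (3.57%, 0.982 to 8.89) and 11 of 182 (6.04%, 3.06 to 10.6). U1 was also among the ERG members. The intervals of rRNA and of snRNA genes all included the share of all listed genes. The host transcript Snhg5 with its snoRNAs had a SOX7 peak of 4050 bp at percentile 88.1 of its list and a FLI1 peak of 4850 bp at percentile 62.9. These genes have many near-identical copies, so reads may be shared between copies, and the assignment of such peaks is uncertain.

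Of the microRNA genes in the files, 3 of 81 had a broad SOX7 peak (3.70%, 0.770 to 10.4), 4 of 164 a broad FLI1 peak (2.44%, 0.668 to 6.13) and 2 of 23 a broad ERG peak (8.70%, 1.07 to 28.0), against 5.24%, 7.55% and 0.57% of all listed genes. Mir688 had 61.5 reads per kb in its broad SOX7 peak, and Mir290 and Mir3099 had 99.0 and 64.6 reads per kb over their FLI1 peaks.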
